A study of Homo sapiens with 24 samples.

Results

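The alpha and beta tubulins described here are 10 genes, TUBA1A, TUBA1B, TUBA1C, TUBB, TUBB2A, TUBB2B, TUBB3, TUBB4A, TUBB4B and TUBB6, taken by gene name from a matrix of 58051 genes. All 10 passed the filter on low counts, which kept 18852 genes. RNA sequencing counts were available for 24 libraries of human LUHMES cells, a conditionally immortalised mesencephalic line that the submitters differentiated into neurons with tetracycline, cAMP and GDNF. Each culture was exposed for 6 h, and each of the 8 groups held 3 libraries. The control cultures received 1% DMSO, and the toxicants, also dissolved in DMSO, were MS275 (entinostat, which inhibits histone deacetylases), Paraquat and MPP (methylphenylpyridinium) at 5 µM, the zinc-containing fungicide Ziram at 2 µM, Rotenone and 6-HD (hydroxydopamine) at 1 µM, and Methyl_mercury at 0.5 µM. All libraries came from 1 cell line at 1 time point and 1 dose of each toxicant, and every comparison with DMSO used the same 3 control libraries.

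Alpha and beta tubulin form the heterodimer from which microtubules are built, and neurons, whose axons are packed with microtubules, express several genes (isotypes) of each. Cells adjust tubulin mRNA to the amount of unpolymerised dimer: when free dimer rises, the factor TTC5 recognises the first residues of the nascent tubulin chain at the ribosome and, through SCAPER and the CCR4-NOT deadenylase, the mRNA being translated is degraded. Rotenone is best known as an inhibitor of mitochondrial complex I and is also known to bind tubulin and hinder its polymerisation. MPP is taken up by dopaminergic neurons and likewise inhibits complex I.

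The start of the coding sequence is shown for the members because it encodes the residues read in this autoregulation. Each line gives the first 30 bases of the spliced coding sequence, 5′ to 3′, of 1 GENCODE 29 transcript per gene on GRCh38, with the first 12 bases in capitals.
TUBA1A: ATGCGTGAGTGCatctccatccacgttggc
TUBA1B: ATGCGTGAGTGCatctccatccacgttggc
TUBA1C: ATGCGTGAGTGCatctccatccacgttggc
TUBB: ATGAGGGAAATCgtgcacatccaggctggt
TUBB2A: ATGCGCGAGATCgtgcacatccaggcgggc
TUBB2B: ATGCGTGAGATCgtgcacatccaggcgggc
TUBB3: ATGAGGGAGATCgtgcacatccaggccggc
TUBB4A: ATGCGGGAGATCgtgcacctgcaggccggc
TUBB4B: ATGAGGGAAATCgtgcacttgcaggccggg
TUBB6: ATGAGGGAGATCgtgcacatccaggcgggc

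The 3 alpha genes were identical over these 30 bases, while the 7 beta genes used 5 spellings of the first 12. For comparison, the alpha gene TUBA4A and 2 tubulins of other families, gamma (TUBG1) and delta (TUBD1), start as follows; these 3 are not members.
TUBA4A: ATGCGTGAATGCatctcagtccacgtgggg
TUBG1: ATGCCGAGGGAAatcatcaccctacagttg
TUBD1: ATGTCAATTGTAacagtgcaacttggtcag

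The 3 alpha genes lie close together on chromosome 12: TUBA1B at chr12:49127782-49131397 and TUBA1A at chr12:49184796-49189324, both on the minus strand, and TUBA1C at chr12:49188736-49274603 on the plus strand. TUBB2A (chr6:3153669-3157526) and TUBB2B (chr6:3224261-3231730) are neighbours on the minus strand of chromosome 6, and TUBB lies elsewhere on it (chr6:30720201-30725426, plus strand). TUBB3 is at chr16:89921392-89938761 (plus), TUBB4A at chr19:6494319-6502848 (minus), TUBB4B at chr9:137241213-137243707 (plus) and TUBB6 at chr18:12307669-12344320 (plus).

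Copies of this family resemble each other closely enough to share reads. Over aligned coding bases the alpha genes were 95.9% to 97.2% identical, TUBB2A and TUBB2B 98.2%, and the other pairs of beta genes 80.9% to 90.1%. Of all 75-base windows in the chosen transcript, 56.8% for TUBB2A, 44.4% for TUBB2B, 42.2% for TUBA1B, 27.1% for TUBA1A and 17% for TUBA1C also occurred in another member. The share was 6.5% for TUBB3, 4.4% for TUBB4B, 1.9% for TUBB4A and 0% for TUBB and TUBB6. With genes outside the 10 counted as well, it was 89.2% for TUBB3, 8.4% for TUBB and 0% for TUBB6. TUBB3 shared 89.5% of its exon bases with a readthrough gene model on the same strand, AC092143.1, which was listed at 0 counts in all 24 libraries. On the opposite strand, AC011603.2 overlapped 72.6% of the exon bases of TUBA1B and held 133 counts over the 24 libraries, against 157374 for TUBA1B. Opposite-strand models also overlapped 22.2% of the exon bases of TUBA1C, 21.6% of TUBB4A, 20.1% of TUBB, 13% of TUBA1A and 7.6% of TUBB4B. How reads that fit more than 1 gene were counted, and whether strand was used, is not given in the sources used here. Single-gene values of TUBA1A, TUBA1B, TUBA1C, TUBB2A, TUBB2B and TUBB3 are therefore uncertain, and without strand those of TUBB, TUBB4A and TUBB4B could be too. Reads exchanged between alpha genes, or between beta genes, leave the sums unchanged. Reads left uncounted would be missing from the sums, shares and ratios as well. If reads in the readthrough model were left uncounted, the level of TUBB3 is understated. The 10 members held 99.71% of the counts of all alpha and beta tubulin rows in the matrix.

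Library totals ranged from 9.69 to 46.9 megareads, and the fewest counts of any member in any library were the 60 of TUBB4A. All 9 pan-neuronal markers were at 1 CPM or more in each group, where CPM is counts per megaread of the scaled library total. Of 7 dopaminergic markers, 4 reached 1 CPM in DMSO, led by SLC6A3, the dopamine transporter (636 CPM), and TH, tyrosine hydroxylase (50.8 CPM), while FOXA2 was at 0 counts and SLC18A2 and LMX1B were below 1 CPM. Markers of microglia and blood summed to between 0.525 and 0.798 CPM in the DMSO libraries. Other lists were higher there: markers of cycling cells summed to 297 to 336 CPM and neural precursor markers to 89.9 to 111. Glial markers summed to 128 to 142 CPM, mostly OLIG2 (114 CPM), and those of endothelium and fibroblasts to 43.3 to 48.4.

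In vehicle-treated neurons TUBA1A, the alpha isotype typical of postmitotic neurons, far exceeded all other members. Levels of different genes are compared per kilobase of the chosen transcript. TUBA1A stood at 5870 ± 236 CPM per kb (SD, n = 3), followed by TUBB2B at 717 ± 34.3 and TUBB at 611 ± 26.6, the 2 main beta isotypes here. TUBB2A (225 ± 6.64), TUBB4B (214 ± 11.1) and TUBA1B (189 ± 5.09 CPM per kb) formed a middle tier. TUBB3, the beta isotype widely used to mark neurons, was at 30.9 ± 5.86, TUBB6 at 22.6 ± 1.75, TUBA1C at 20.1 ± 2.39 and TUBB4A, a brain isotype, at 7.99 ± 0.879 CPM per kb. Neighbours in this order overlapped between libraries only for TUBB2A with TUBB4B and for TUBB6 with TUBA1C. The place of TUBB3 is uncertain, since 89.5% of its exon bases lie in the readthrough model AC092143.1. Shared reads left uncounted could also understate TUBB2A and TUBB2B. TUBA1A made up 96.8% ± 0.0467 of the alpha sum. The 10 genes together took 1.55% ± 0.0441 of all counts in DMSO.

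**Figure D1:**
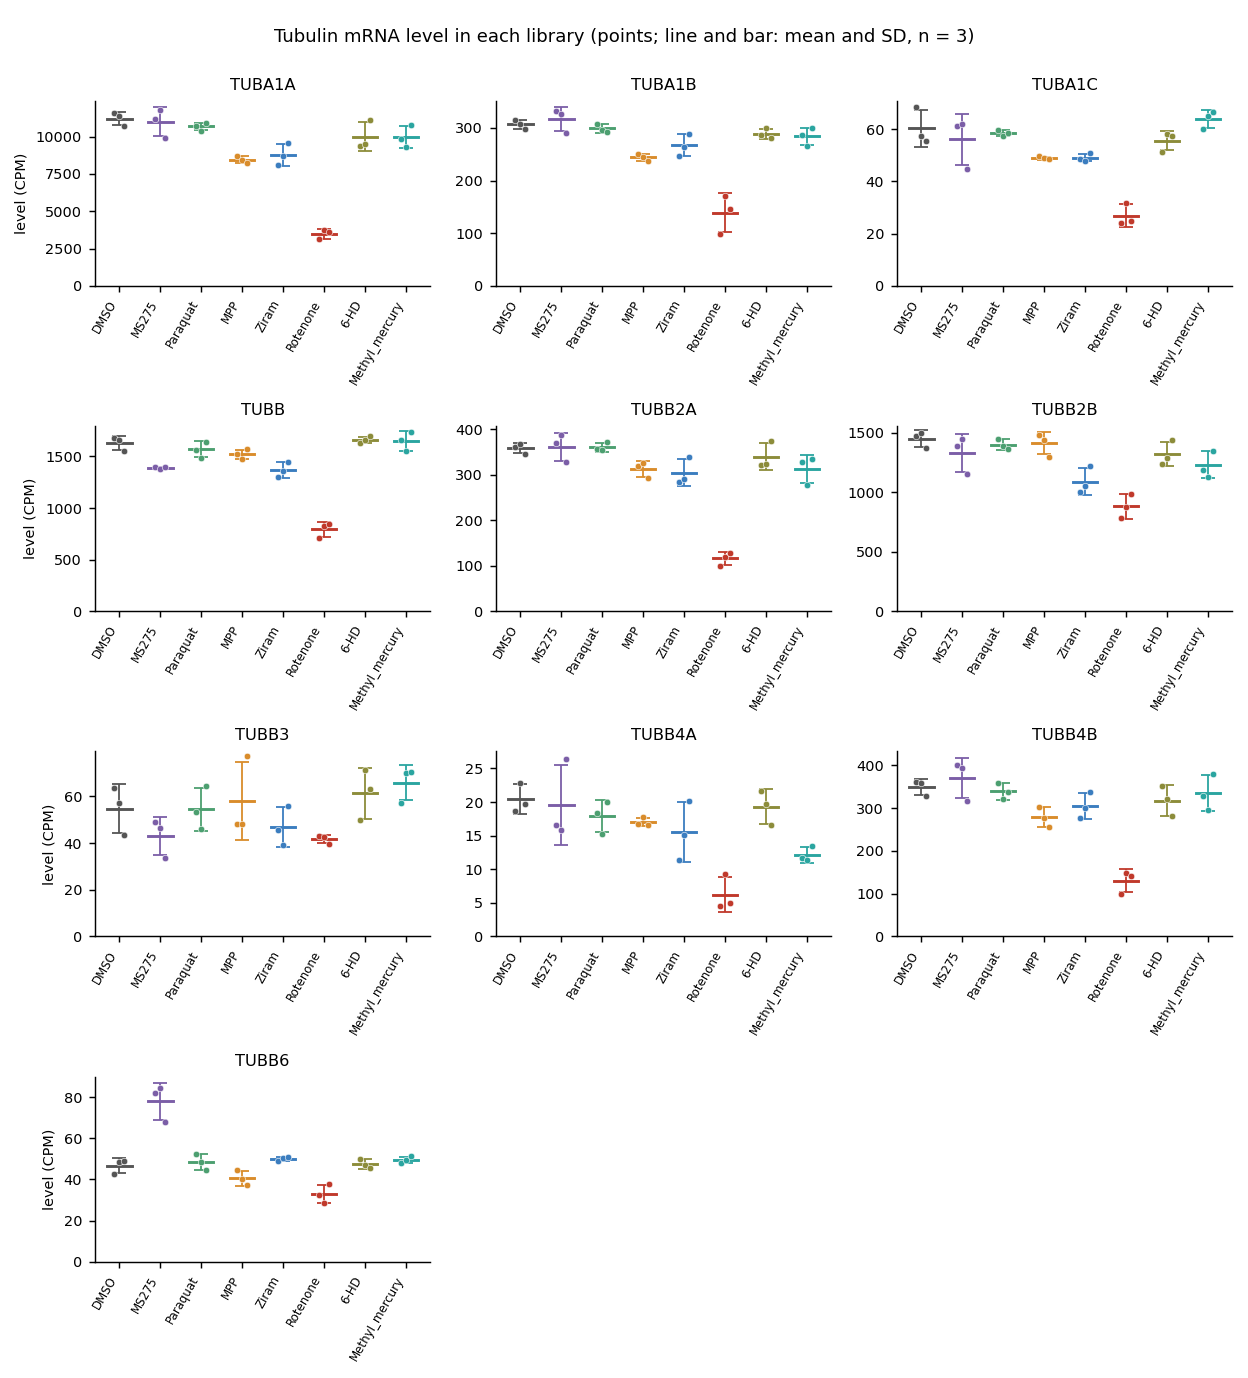
Level of each tubulin gene in CPM (vertical axes, each from 0) in the 8 groups (horizontal axes); points are libraries, horizontal lines the group means and bars the SD (n = 3). For TUBA1A the 3 Rotenone libraries sit between 3120 and 3750 CPM, below the 21 other libraries, and TUBB6 is highest under MS275.

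Across the 8 groups, all 10 members differed by the edgeR quasi-likelihood F test with Benjamini-Hochberg adjustment over 18852 genes (threshold 0.05), in a matrix where 55.3% of genes did. The adjusted p ran from 2.53e-15 for TUBA1A to 0.013 for TUBB3. The submitters describe the 3 libraries of a group as biological samples of cultured cells, without saying whether they were separate differentiations. The edgeR p-values weigh a difference between groups against the spread between such samples within groups, estimated over all 8 groups. In such bulk samples, fewer cells of a type and less RNA per cell cannot be told apart.

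Nearly the whole family was lower under Rotenone. Against DMSO, 9 of the 10 genes fell and none rose, where 5.52% of all genes were called and 2.76% were called lower. The median log2 fold change of the 10 was -1.16, against -0.01 for all genes tested. The share of all counts held by the 10 genes was 0.559% ± 0.0497 under Rotenone. By adjusted p, TUBA1A ranked 1 of 18852 genes in this comparison, TUBB2A ranked 3, TUBB 4 and TUBB4B 9.

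Among the alpha genes, TUBA1A measured 11600, 11400 and 10700 CPM in the DMSO libraries and 3120, 3750 and 3580 under Rotenone. No Rotenone library came near the lowest control, and the log2 fold change was -1.69 ± 0.08 (SE; edgeR adjusted p = 9.48e-16). The first Rotenone library and the second DMSO library, at 3120 and 11400 CPM, had the same total of 24.7 megareads. TUBA1B, a broadly expressed alpha isotype, measured 315, 307 and 298 CPM in DMSO and 98.2, 171 and 147 under Rotenone. Its Rotenone libraries spread more than those of TUBA1A but stayed below every control (log2 fold change -1.15 ± 0.11, edgeR adjusted p = 4.12e-08). TUBA1C, also broadly expressed, went from 68.5, 57.2 and 55.3 CPM to 24, 31.8 and 24.9, again without overlap (-1.17 ± 0.12, edgeR adjusted p = 6.7e-08).

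Among the beta genes, TUBB, the main class I isotype found in most cells, measured 1680, 1660 and 1550 CPM in DMSO and 713, 826 and 850 under Rotenone (log2 fold change -1.04 ± 0.07, edgeR adjusted p = 3.9e-12). TUBB2A, a class II neuronal isotype, measured 362, 368 and 347 CPM in DMSO and 100, 119 and 129 under Rotenone (-1.63 ± 0.10, edgeR adjusted p = 2.6e-13). Its near-copy TUBB2B, expressed in developing neurons, measured 1470, 1500 and 1370 CPM in DMSO and 780, 874 and 989 under Rotenone (-0.72 ± 0.09, edgeR adjusted p = 5.95e-06). In all 3 genes the groups were apart, but the paired copies fell to different extents: the 95% interval was -1.83 to -1.44 for TUBB2A and -0.91 to -0.53 for TUBB2B. The TUBB2A to TUBB2B ratio was 0.248 ± 0.00467 in DMSO and 0.132 ± 0.00371 under Rotenone, and between 0.216 and 0.286 in each of the 18 remaining libraries. This ratio was chosen after its values were seen and was not tested.

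TUBB4A fell from 18.6, 22.9 and 19.7 CPM in DMSO to 4.53, 9.24 and 4.92 under Rotenone (-1.78 ± 0.23, edgeR adjusted p = 5.54e-06). The second Rotenone library was well above the other two, and all 3 were below the controls. TUBB4B, a widely expressed class IV isotype also used in cilia, went from 362, 358 and 329 CPM to 99.7, 149 and 142 (-1.43 ± 0.12, edgeR adjusted p = 1.66e-09). TUBB6, a class V isotype more prominent outside the nervous system, went from 42.5, 48.5 and 49.1 CPM to 32.5, 28.5 and 37.6 (-0.51 ± 0.11, edgeR adjusted p = 0.00355). The groups stayed apart for both. With the 2 groups fitted alone, TUBB6 had an adjusted p of 0.0819.

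TUBB3 was the member not called. It measured 63.5, 57.2 and 43.3 CPM in DMSO and 42.9, 42.8 and 39.7 under Rotenone, so the groups were separated by less than the spread within DMSO. The log2 fold change was -0.38 ± 0.18 with an edgeR adjusted p of 0.222, and its 95% interval, -0.74 to -0.02, covers a small decrease but not one of the size seen for TUBA1A. Without the filter on low counts the adjusted p was 0.0312. The overlap of TUBB3 with the readthrough model, given above, limits this result as well.

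Counting only separation of libraries, all 3 Rotenone libraries were below all 3 DMSO libraries for 10 of 10 members, as for 11.3% of all genes tested. A called decrease to 0.5 of DMSO or less was seen for 7 members (TUBA1A, TUBA1B, TUBA1C, TUBB, TUBB2A, TUBB4A and TUBB4B) and for 0.652% of all genes. TUBB, TUBB4A, TUBB4B and TUBB6, with 0% to 4.4% of windows in another member, were among those that fell. The part of shared or overlapping reads in the decreases was not tested.

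**Figure D2:**
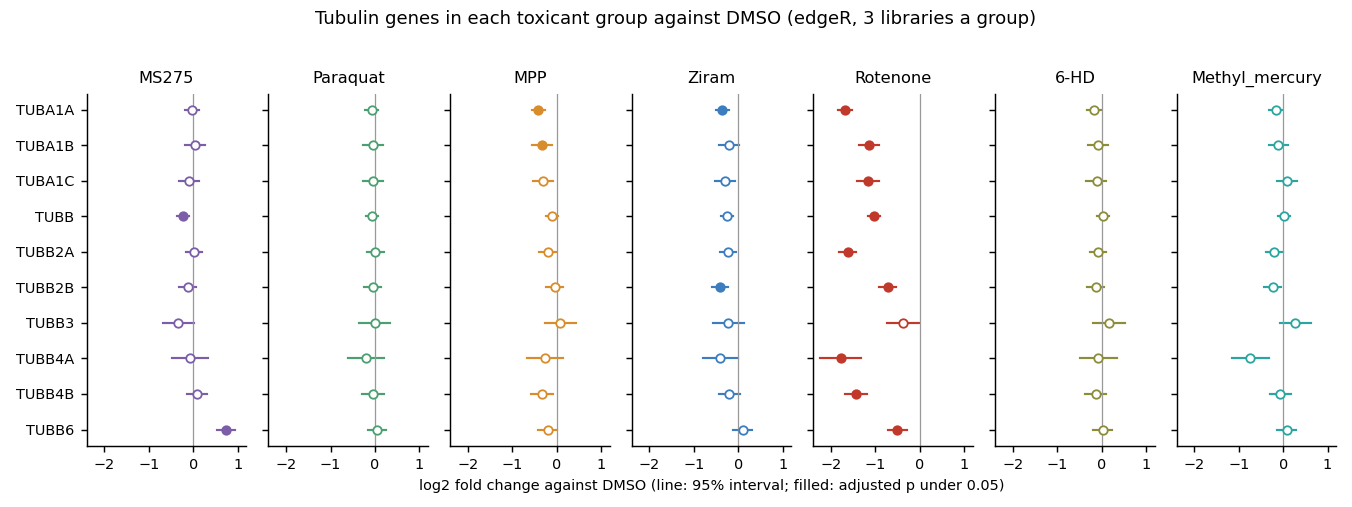
Log2 fold change of each tubulin gene against DMSO (horizontal axis) in the 7 toxicant groups (panels), with 95% intervals as lines; filled points have an edgeR adjusted p under 0.05. The Rotenone panel lies left of 0 for all 10 genes, from -1.78 for TUBB4A to -0.38 for TUBB3, while most points of the other panels lie near 0.

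Since copies share reads, the family was also summed. The alpha sum was 12000, 11700 and 11100 CPM in DMSO and 3240, 3950 and 3750 under Rotenone, a log2 ratio of means of -1.67. The beta sum was 4000, 4020 and 3710 CPM in DMSO and 1770, 2050 and 2190 under Rotenone, a log2 ratio of -0.96. Both sums separated the groups, and the alpha sum moved further. The alpha to beta ratio was accordingly 2.97 ± 0.0479 in DMSO and 1.82 ± 0.108 under Rotenone. TUBA1A held 95.5% ± 0.684 of the alpha sum under Rotenone, so the ratio is mostly that of 1 gene to the 7 beta genes. Within the beta sum, TUBB2B took 37% ± 0.304 of counts in DMSO and 43.9% ± 1.22 under Rotenone, and TUBB2A 9.19% ± 0.157 and 5.78% ± 0.123.

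**Figure D3:**
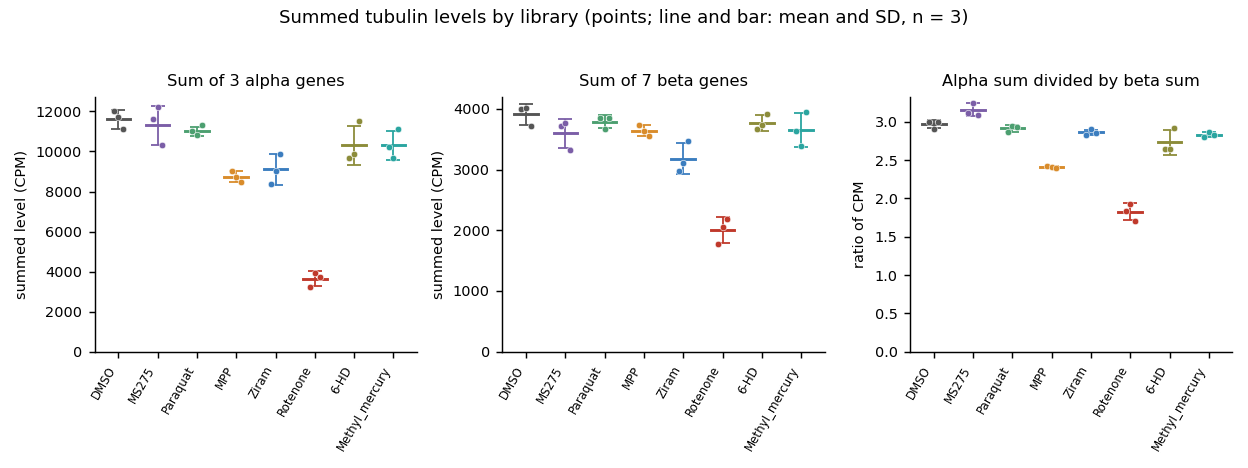
Summed level of the 3 alpha and the 7 beta genes in CPM and their ratio (vertical axes, from 0) in the 8 groups; points are libraries, lines the means and bars the SD (n = 3). The ratio is between 1.71 and 1.93 under Rotenone and between 2.39 and 2.42 under MPP, below the DMSO libraries at 2.91 to 3.

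Other cell markers were followed beside the Rotenone result. The summed level of 9 pan-neuronal markers was 6150 to 6410 CPM under Rotenone and 5870 to 7110 in DMSO, with 1 called higher and 0 lower. The 7 dopaminergic markers summed to 879 to 1230 CPM against 636 to 758, with 1 called higher and 0 lower. Most of this was SLC6A3 (1050 against 636 CPM), while TH was at 38.2 against 50.8 CPM. Summed markers of cycling cells were 349 to 379 CPM against 297 to 336 in DMSO, with 0 of 8 called. The 6 neural precursor markers summed to 158 to 186 CPM against 89.9 to 111, which was mostly NES (155 against 80.9 CPM). SOX2 was at 0 counts under Rotenone, but had only 12 counts over the DMSO libraries (0.133 CPM). Of the precursor markers 1 was called higher and 1 lower. The 8 glial markers summed to 140 to 168 CPM against 128 to 142, with 1 called higher and 0 lower, and the 5 of endothelium and fibroblasts to 39.5 to 65.5 against 43.3 to 48.4, with 0 called. Their part in the tubulin result was not tested.

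Under MPP, the other complex I inhibitor of the series, 2 of the 3 alpha genes fell, no beta gene was called and none of the 10 rose, where 10.8% of all genes were called and 5.02% were called lower. TUBA1A measured 8710, 8460 and 8200 CPM, below the 3 DMSO libraries (log2 fold change -0.41 ± 0.08, edgeR adjusted p = 0.000414). TUBA1B measured 250, 244 and 238 CPM, also below all controls (-0.33 ± 0.11, edgeR adjusted p = 0.0486). The call of TUBA1B was close to the threshold, and leaving out any 1 of the 6 libraries took its adjusted p to between 0.0869 and 0.15.

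The remaining alpha gene, TUBA1C, had a log2 fold change of -0.30 under MPP (edgeR adjusted p = 0.0834), and TUBB4B one of -0.33 (edgeR adjusted p = 0.0703). The 2 main beta isotypes were close to DMSO, TUBB at 1520, 1480 and 1570 CPM (-0.10, 95% interval -0.24 to 0.04) and TUBB2B at 1480, 1440 and 1300 CPM (-0.04, -0.23 to 0.14). The median over the 10 was -0.23, against 0 for all genes tested. In 6 of 10 members the 3 MPP libraries lay below all DMSO libraries, as for 17.5% of all genes. The log2 ratio of the alpha sum was -0.41 and that of the beta sum -0.11, and the alpha to beta ratio was 2.41 ± 0.0116. MPP libraries had the lowest TMM scaling factors of the series (0.919 to 0.953), and with library totals as the only scaling 6 members were called lower.

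Under Ziram 1 alpha and 1 beta gene fell and none of the 10 rose, where 0.53% of all genes were called and 0.122% were called lower. TUBA1A measured 8080, 8720 and 9550 CPM (log2 fold change -0.36 ± 0.08, edgeR adjusted p = 0.0154) and TUBB2B measured 1000, 1050 and 1220 CPM (-0.41 ± 0.09, edgeR adjusted p = 0.0256). All Ziram libraries were below DMSO for both genes, the third being closest to it. Both calls were lost without DMSO library 1 or 2 or Ziram library 1 or 2, with adjusted p from 0.0886 to 0.392. TUBB, at 1300, 1360 and 1450 CPM, had a log2 fold change of -0.25 ± 0.07 (edgeR adjusted p = 0.0931). It was called lower by DESeq2 (adjusted p = 0.0159) and limma-voom (adjusted p = 0.0251). The median over the 10 was -0.24 against 0.01 for all genes. In 6 of 10 members the 3 Ziram libraries lay below all DMSO libraries, as for 10.2% of all genes. For TUBB6, which was not called, they lay above all DMSO libraries, at 49.2, 50.3 and 50.9 CPM. The log2 ratio was -0.35 for the alpha sum and -0.30 for the beta sum, and the alpha to beta ratio was 2.86 ± 0.0391.

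Under MS275, where 43.2% of all genes were called (20.1% higher, 23% lower), 1 of the 10 members rose and 1 fell. TUBB6 rose from 42.5, 48.5 and 49.1 CPM in DMSO to 82, 84.6 and 67.8 (log2 fold change 0.74 ± 0.10, edgeR adjusted p = 8.89e-07), the single increase called among the 10 genes in any group. TUBB fell slightly, to 1400, 1380 and 1400 CPM (-0.23 ± 0.07, edgeR adjusted p = 0.00618). Neither gene overlapped the controls. Several marker lists also changed under MS275. Markers of endothelium and fibroblasts summed to 108 to 111 CPM against 43.3 to 48.4 in DMSO (3 of 4 tested called higher). Glial markers summed to 152 to 179 against 128 to 142 (5 of 6) and precursor markers to 168 to 192 against 89.9 to 111 (5 of 6). The most abundant glial marker, OLIG2, was at 104 CPM against 114. Dopaminergic markers summed to 1030 to 1240 CPM against 636 to 758 (5 of 6 tested called higher), and 2 of 9 pan-neuronal markers were called higher. Of 8 markers of cycling cells, 4 were called lower and 0 higher. The part of these markers in the TUBB6 result was not tested. The 8 other members were not called, TUBA1A with a log2 fold change of -0.03 (95% interval -0.19 to 0.12). The median of the 10 was -0.06, against 0.04 for all genes.

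No member was called by edgeR under Paraquat, 6-HD or Methyl_mercury. For Paraquat, where 0% of all genes were called, 0 members had an unadjusted p under 0.05, and DESeq2 and limma-voom also called 0. TUBA1A measured 10700, 10400 and 10900 CPM there (log2 fold change -0.07, 95% interval -0.23 to 0.08). For 6-HD (0.0106% of all genes called) 1 member, TUBA1A, had an unadjusted p under 0.05, with DESeq2 and limma-voom at 0 members. Its 6-HD libraries were at 9350, 9510 and 11100 CPM and overlapped DMSO (log2 fold change -0.17, 95% interval -0.32 to -0.02).

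For Methyl_mercury (0.286% of all genes called) 4 members had an unadjusted edgeR p under 0.05, TUBA1A, TUBB2A, TUBB2B and TUBB4A, each toward lower levels. DESeq2 called 1 member and limma-voom 0. The member called by DESeq2 was TUBB4A (adjusted p = 0.0413), at 11.6, 11.3 and 13.5 CPM against 18.6, 22.9 and 19.7 in DMSO. In the edgeR test its log2 fold change was -0.75 ± 0.20 (adjusted p = 0.11). TUBB2A (-0.20, edgeR adjusted p = 0.397), TUBB2B (-0.24, edgeR adjusted p = 0.272) and TUBB4A lay below all DMSO libraries, and the remaining members overlapped them. The share of all genes separated in this way was not counted for Methyl_mercury. The alpha sum was 10200, 9660 and 11100 CPM and the beta sum 3630, 3380 and 3940 CPM, both overlapping DMSO.

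Direct comparisons asked whether toxicants with a related action or structure differed. Paraquat and MPP are both pyridinium cations, a bipyridinium and a phenylpyridinium, and both were given at 5 µM. TUBA1A was lower under MPP than under Paraquat (log2 fold change -0.34 ± 0.08, 95% interval -0.49 to -0.18, edgeR adjusted p = 0.00331), the only member called, where 11% of all genes were called and 4.94% were called lower. For TUBA1B the difference was -0.29 (-0.52 to -0.07, edgeR adjusted p = 0.0833), and for TUBB it was -0.04 (-0.18 to 0.10). With library totals as the only scaling, or with these groups fitted alone, 6 members were called lower.

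Rotenone and MPP were given at different doses, 1 and 5 µM. Between them 8 members were lower under Rotenone and none higher, where 6.74% of all genes were called and 3.69% were called lower. TUBA1A differed by -1.28 ± 0.08 (edgeR adjusted p = 1.63e-12), TUBB2A by -1.43 and TUBB by -0.94. TUBB3 (-0.46, edgeR adjusted p = 0.112) and TUBB6 (-0.30, edgeR adjusted p = 0.0841) were not called. Against 0.5 µM Methyl_mercury, a compound known to act on tubulin thiols, all 10 members were lower under Rotenone, where 8.89% of all genes were called and 4.4% were called lower. These differences ran from -1.52 for TUBA1A to -0.48 for TUBB2B. The TUBB3 difference, -0.65 ± 0.18 (edgeR adjusted p = 0.0172), was lost without Rotenone library 3 or Methyl_mercury library 2. With the 2 groups fitted alone, TUBB4A (adjusted p = 0.0884) and TUBB6 (adjusted p = 0.0561) lost the call.

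Other tubulins and the proteins that fold, modify and control tubulin were read from 5 lists. Among 12 further tubulin genes 7 were expressed enough to test, and 3 of them fell under Rotenone with 0 rising (list median -0.15), where 2.76% of all genes were called lower. TUBA4A, a further alpha gene, fell from 23.4 ± 1.12 to 14 ± 2.62 CPM (SD, n = 3, log2 fold change -0.72, edgeR adjusted p = 0.000491). Its first 12 coding bases encode the same residues as those of the alpha members. TUBG1, the gamma tubulin of microtubule nucleation, fell from 69 ± 3.54 to 38.1 ± 6.51 CPM (-0.86, edgeR adjusted p = 2.85e-05). The coding start of TUBG1 encodes other residues. Whether the coding start had a part in either decrease was not tested. TUBB1, a platelet isotype near 1 CPM, was called (-1.92, edgeR adjusted p = 0.0407) but lost the call in 8 of 13 alternatives. TUBD1, delta tubulin, had a log2 fold change of -0.13 and TUBE1, epsilon tubulin, one of 0; neither was called.

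None of 14 subunits of the CCT chaperonin and prefoldin, which fold new tubulin chains, was called under Rotenone (list median -0.02). TCP1, for example, was at 353 ± 11.1 CPM against 369 ± 11.2 in DMSO. Of 7 folding cofactors, which assemble the dimer, TBCC fell (-0.35, edgeR adjusted p = 0.0331; median 0.18), a call lost in 6 of 13 alternatives. Of 8 autoregulation factors 2 fell and 0 rose (median -0.20), in a comparison where 2.76% of all genes were called lower. TTC5 went from 71 ± 3.45 to 54.7 ± 6.34 CPM (-0.38, edgeR adjusted p = 0.0124; lost in 4 of 13 alternatives), and CNOT1, the scaffold of CCR4-NOT, had -0.25 (edgeR adjusted p = 0.0429; lost in 9 of 13). SCAPER was not called (0.22, edgeR adjusted p = 0.161).

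Of 21 tubulin modifying enzymes tested, 2 rose under Rotenone and 0 fell (median 0), where 5.52% of all genes were called. VASH2, a carboxypeptidase that removes the terminal tyrosine of alpha tubulin, went from 142 ± 12.9 to 203 ± 37.9 CPM (log2 fold change 0.52, edgeR adjusted p = 0.00813; lost in 3 of 13 alternatives). TTL, the ligase that adds this tyrosine back, went from 260 ± 14.7 to 306 ± 6.51 CPM (0.23, edgeR adjusted p = 0.0294; lost in 5 of 13). 

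Under MPP the lists gave single calls: TUBB1 lower (-1.82), VASH2 higher (0.41, edgeR adjusted p = 0.0231) and SCAPER higher (0.32, edgeR adjusted p = 0.0183). These are 3 calls over the 5 lists, where 10.8% of all genes were called under MPP, and each was lost on leaving out at least 1 library. Paraquat, Ziram, 6-HD and Methyl_mercury gave 0 calls by edgeR in all 5 lists.

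The lists held many calls under MS275, against its background of 43.2% of all genes. Of the 14 CCT and prefoldin subunits 11 fell and 0 rose (median -0.36), among them PFDN1 (-0.56, edgeR adjusted p = 3.67e-06) and CCT5 (-0.50, edgeR adjusted p = 7.55e-07). Of the 8 autoregulation factors 5 fell and 0 rose (median -0.35), with TTC5 going from 71 ± 3.45 to 40.5 ± 2.74 CPM (-0.81, edgeR adjusted p = 3.34e-08) and CNOT6L having the largest decrease (-0.99). Folding cofactors gave 1 higher (TBCD) and 2 lower (TBCE and TBCC) of 7, and modifying enzymes 5 higher and 7 lower of 21, with TTL lower (-0.63). Among further tubulins TUBA4A rose to 36.3 ± 4.68 CPM (0.64, edgeR adjusted p = 6.98e-05) and TUBG1 fell to 50.8 ± 5.15 CPM (-0.44, edgeR adjusted p = 0.00329).

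**Figure D4:**
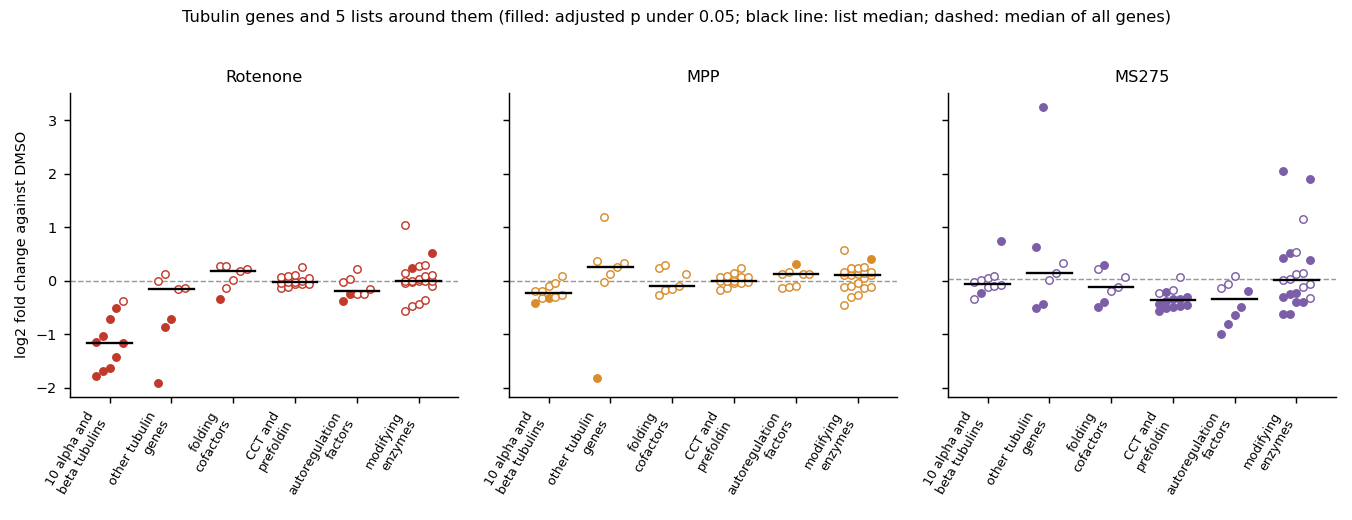
Log2 fold change against DMSO (vertical axis) of the 10 members and of the tested genes of 5 lists (horizontal axis) under Rotenone, MPP and MS275; filled points have an edgeR adjusted p under 0.05, black lines are list medians and dashed lines the median of all genes. Under Rotenone the members' median is -1.16 while the CCT and prefoldin median is -0.02; under MS275 these are -0.06 and -0.36.

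The members were compared with the summed family across the 24 libraries by Pearson's r of log2(CPM + 1), as a description, since the libraries share groups and the sum holds the members. TUBA1A (0.999) and TUBB2A (0.99) followed the sum most closely and TUBB3 least (0.409). Without the Rotenone libraries r stayed at 0.99 for TUBA1A and 0.892 for TUBB2A, and was 0.456 for TUBB and 0.161 for TUBB3. Outside the tubulins, the 5 genes most like the sum among 9948 with a mean of 10 CPM or more were CHST10 (0.839), EMILIN3 (0.837), APBB2 (0.784), LINC02001 (0.781) and AL161669.4 (0.76). APBB2, for example, measured 133 ± 4.99 CPM in DMSO and 98.1 ± 7.39 under Rotenone, given without a test because the gene was chosen for this pattern.

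Upstream of the start sites of the members, 3 motifs were searched on both strands in 250 bases (RefSeq promoters; all 10 members matched, with 16 promoters). None was in all 16. CCAAT occurred in 10 of the 16, against 32% of 35116 promoters, the GC box GGGCGG in 9, against 42.6%, and TATAAA in 1, that of TUBB2A, against 10.7%.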

How the data were processed

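Neurons differentiated from LUHMES cells were profiled by RNA sequencing of polyadenylated, ribosome-depleted RNA, per the labels' protocols. Per the submitters' processing notes, STAR, HTSeq, DESeq and GRCh38 were used; for versions, annotation, strand setting and multiply mapping reads, nothing was given in the sources used here. Deposited by the authors were raw counts per gene and a normalized signal matrix. After rescaling by 1 factor per library, taken from the raw totals, 100% of the signal values returned to the whole counts within 0.01. Both matrices thus hold the same counts. The tests used the raw counts alone and called 1041 genes under Rotenone. All 24 columns were mapped to samples, and 266 genes had no name. Every library was counted as its own replicate.

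The members and the 5 lists were chosen with earlier results of these data known. Counts were fitted with edgeR 4.0.16 (R 4.3.3): TMM scaling, the default expression filter (18852 genes), 1 coefficient for each of 8 groups, 16 residual degrees of freedom, quasi-likelihood F tests and Benjamini-Hochberg adjustment per comparison at 0.05. CPM are counts per megaread of the TMM-scaled total. Named genes were all members, up to 4 called genes of largest change per list and toxicant, and the 5 genes most like the summed members; TUBD1, TUBE1, TCP1 and SCAPER under Rotenone were added after their values were seen. Sums and ratios are descriptions without a test. Alternatives were RLE factors, library totals, no filter, the 2 groups alone, a replicate block, DESeq2 1.42.0, limma-voom (limma 3.58.1) and leaving out each library; those for the difference among 8 groups and for genes of the lists were added after seeing the data. The procedure was tested on simulated data. Gene models came from GENCODE 29, older than the motif table's RefSeq build, and sequence steps and figures used Python 3.11.15 and matplotlib 3.10.9.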

Additional observations from a re-analysis of the deposited data

How the results depend on the processing

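Over 13 alternatives each, the 34 called log2 fold changes of members kept sign in all 442 refits and lost the call in 20, of which 1 (TUBB6) was under Rotenone against DMSO. The number of members called under Rotenone was 9 (8 to 10 over the alternatives), though calls over all genes went from 1041 to 211 with the 2 groups alone. Without Rotenone library 1 they went to 1616, with 9 members called. That library stood apart from libraries 2 and 3 (chi-square of counts per degree of freedom 25.3 and 28.7, against 5.27 between these 2). The MPP count of 2 became 6 with library totals alone, 4 with DESeq2, 5 with the 2 groups alone and 1 on leaving out any library. The Ziram count of 2 became 3 with DESeq2 or limma-voom, each adding TUBB, and 5 with the 2 groups alone. It ranged from 0 to 2 with libraries left out. The Methyl_mercury count of 0 became 1 (TUBB4A) with no filter, DESeq2 or the 2 groups alone. MPP against Paraquat called 6 with library totals alone, 3 with no filter, 2 with limma-voom and 6 with the 2 groups alone, in place of 1. With library totals alone the log2 ratios under MPP were -0.50 for the alpha sum and -0.20 for the beta sum. The cause was not tested. Replicate numbers did not pair the libraries: 16 of 84 same-numbered pairs deviated together with r over 0.1 (range -0.369 to 0.371), and 8 of 24 libraries correlated best with their own number. With a replicate block, MPP called 1 member in place of 2 and no other member count changed. Counting depth limits TUBB4A most, at 60 counts in 1 library.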

Other observations

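The matrix also held 48 other rows named as alpha or beta tubulin genes or pseudogenes, with 21910 counts in all over the 24 libraries against 7618769 for the 10 members. TUBA4A took 15161 of these counts, the pseudogenes TUBA3FP and TUBAP2 took 3048 and 1063, and TUBB1 took 684. At 0 counts in every library were 16 rows. The testis and oocyte isotypes were nearly silent, with 3 counts for TUBA3C, 118 for TUBA3D, 7 for TUBA3E and 32 for TUBB8. Under MS275 the atypical alpha tubulin TUBAL3 went from 0.291 ± 0.112 to 2.79 ± 0.353 CPM (SD, n = 3; edgeR adjusted p = 0.000811).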
